A study of Danio rerio with 16 samples.

Results

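The genes described are 10 genes of hepatocytes, the main cells of the liver, out of the 22994 genes in the deposited table: fga, fgb, fgg, serpina1, hp, cp, ambp, tfa, apoa2 and fabp10a. They were found by symbol and each matched 1 Ensembl identifier. The rule uses no measured value, but the list was drawn up with earlier results of these data known. RNA came from 16 samples of 10 whole zebrafish larvae of the AB strain at 5 dpf, in 4 conditions with 4 replicates each: wild type (WT) and klf9-/- larvae, with DMSO vehicle or with 1 µM cortisol in the medium from 4 hpf. The klf9-/- line carries a 2 bp frameshift deletion, descends from 1 female founder, and was compared with WT larvae bred from siblings of the mutant parents. All larvae of a condition shared 1 dish, so p-values measure the spread between samples of 1 dish and a dish cannot be told apart from its condition. Preparation of the RNA took 2 days: replicates 1 and 2 of every condition on the first (day 1), with all frozen samples left in lysis buffer before any was homogenized, and replicates 3 and 4 on the second (day 2), with no such wait. Replicates 3 and 4 had also been taken from the dish after replicates 1 and 2, so preparation day and order of collection cannot be told apart.

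Hepatocytes make most of the proteins of blood plasma and secrete them. In mammals, some of these proteins are called acute-phase proteins because inflammatory signals, mainly interleukin 6 acting through STAT3 and C/EBP factors, raise their transcription, and glucocorticoids acting through the glucocorticoid receptor commonly enhance that response. Cortisol is the main glucocorticoid of fish as of humans, and klf9 encodes a transcription factor of the Krüppel-like family whose gene is a target of the glucocorticoid receptor. The comparison addressed here is therefore how liver plasma protein transcripts differed after days of cortisol, and whether that difference was altered in klf9-/- larvae. By a rise in inflammation in mammals, 6 genes were set apart as acute-phase members (fga, fgb, fgg, serpina1, hp and cp) and 4 as other members (fabp10a, tfa, ambp and apoa2). The other members were not chosen for being unchanged in inflammation.

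The 3 fibrinogen genes encode the chains of the protein that thrombin turns into the fibrin of a clot: fga (ENSDARG00000020741) the alpha chain, fgb (ENSDARG00000008969) the beta chain and fgg (ENSDARG00000037281) the gamma chain. Alpha-1-antitrypsin, encoded by serpina1 (ENSDARG00000090286), inhibits neutrophil elastase, and ambp (ENSDARG00000004296) encodes a precursor that is cut into alpha-1-microglobulin and the protease inhibitor bikunin. Among the metal and heme handlers, cp (ENSDARG00000010312) encodes ceruloplasmin, a copper-containing ferroxidase, tfa (ENSDARG00000016771) encodes the iron carrier transferrin, and hp (ENSDARG00000051890) encodes haptoglobin, which binds free hemoglobin. Of the lipid carriers, apoa2 (ENSDARG00000015866) encodes an apolipoprotein of high-density lipoprotein. The product of fabp10a (ENSDARG00000038439) binds bile acids and fatty acids inside the hepatocyte and is not a plasma protein. In the order of protein-coding genes of the RefSeq annotation (assembly GRCz12tu), fga and fgb are 2 steps apart, fgg is 259 steps from fga on the same chromosome, and serpina1 stands next to its paralog serpina1l (ENSDARG00000090850). Reads of serpina1 and serpina1l may have been divided between them by the counting, so values of serpina1 are uncertain in that respect.

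Each deposited value is the log2 of a normalized count plus 0.1. Full-quantile normalization had given every sample the same set of values, so the number of reads behind a value is unknown and errors come from replicates alone. At high values this set has few members. In 1 sample, the 1710 genes above 1000 normalized counts shared 300 distinct values, and near the level of apoa2 neighbouring values lay about 0.17 apart on the log2 scale. The 16 samples held 5 distinct values of apoa2, and 9 samples had the same one, 26483. The small spread of apoa2, and in part that of tfa (7 distinct values), is therefore set by the scale. As a check of the labels, klf9 itself had 233 ± 47.2 normalized counts (SD, n = 4) in WT larvae with vehicle and 106 ± 23.7 (SD, n = 4) in klf9-/- larvae with vehicle, a log2 difference of −1.14 (SE 0.18, adjusted p = 0.00966, limma). The larvae were measured whole, so the number of hepatocytes, the RNA per hepatocyte and RNA from other cells cannot be told apart for any member.

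Every member but hp was abundant. Mean values over the 16 samples ran from 1101 normalized counts for ambp to 23809 for apoa2, without a correction for transcript length. Haptoglobin was barely detected: hp had 2, 2, 4 and 5 normalized counts in WT larvae with vehicle, 5, 6, 4 and 6 with cortisol, 5, 2, 4 and 4 in klf9-/- larvae with vehicle and 4, 5, 4 and 6 with cortisol. The 4 conditions overlapped, and the mean of 4.25 lay below the limit of 5 normalized counts set for testing, so 9 of the 10 members were tested among 21490 genes. With no limit, hp differed by 0.77 (SE 0.37, adjusted p = 0.169, limma) with cortisol in WT larvae. The 9 tested members moved together across samples: the Pearson correlation of each with the mean of the others over 16 samples, which share a preparation day in groups of 8, ran from 0.717 (fabp10a) to 0.963 (fgg). In WT larvae with vehicle, replicate 1 lay below replicate 2 and replicate 4 below replicate 3 in all 9 members.

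**Figure D1:**
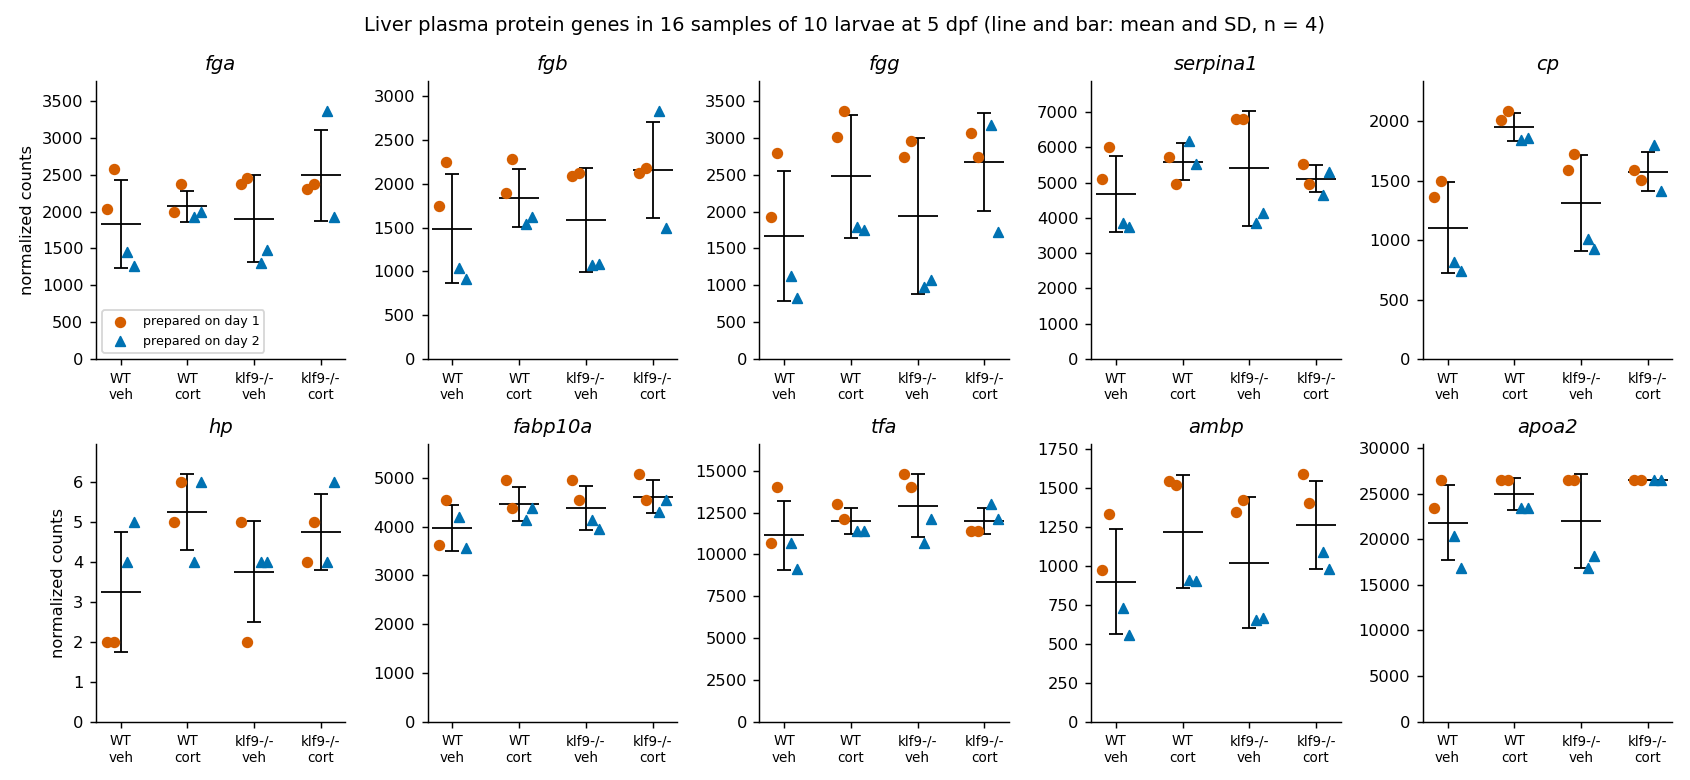
Normalized counts of the 10 members in each of the 16 samples, by condition (WT or klf9-/-, vehicle or cortisol). Circles are samples prepared on day 1 and triangles samples prepared on day 2, and horizontal lines with bars give the mean and SD of the 4 replicates. The vehicle samples of day 2 sit low for cp (737 to 1012) and fgg (830 to 1124), while hp stays at 2 to 6 in all samples.

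In WT larvae, cp and ambp were called higher with cortisol. The values of cp with vehicle were 1367 and 1494 normalized counts on day 1 and 819 and 737 on day 2. With cortisol they were 2014 and 2088 on day 1 and 1841 and 1862 on day 2. Every cortisol sample lay above every vehicle sample, and the means were 1951 ± 119 against 1104 ± 382 (SD, n = 4). In the limma model with preparation day as a covariate the log2 difference was 0.89 (SE 0.16, adjusted p = 0.00612), a 1.85-fold higher level. The values of ambp were 975, 1333, 730 and 558 normalized counts with vehicle and 1546, 1517, 912 and 901 with cortisol. The groups overlapped, but on each day both cortisol samples were above both vehicle samples, and the log2 difference was 0.47 (SE 0.12, adjusted p = 0.0307). The call of ambp was lost without any 1 of 4 samples (WT vehicle replicates 1 and 4, WT cortisol replicates 1 and 2), where the adjusted p lay between 0.0779 and 0.105. The call of cp held when any 1 sample was left out (log2 difference 0.78 to 0.99), but not in a model without preparation day (adjusted p = 0.179). Thus 2 of the 9 tested members were called higher, against 4.67% of all genes tested that were called higher and 8.66% called in either direction.

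The other 7 members were not called with cortisol in WT larvae. The nearest was fgg, with 1921, 2793, 1124 and 830 normalized counts with vehicle and 3014, 3366, 1786 and 1747 with cortisol. Within each day both cortisol samples exceeded both vehicle samples, and the difference was 0.67 (SE 0.22, adjusted p = 0.0659). The exact permutation test within days gave p = 0.0556, two-sided, for cp, ambp and fgg alike, and this design cannot give a smaller one. The difference was 0.38 (SE 0.20, adjusted p = 0.197) for fgb, 0.28 (SE 0.15, adjusted p = 0.197) for serpina1 and 0.23 (SE 0.19, adjusted p = 0.42) for fga. Among the carriers it was 0.21 (SE 0.11, adjusted p = 0.187) for apoa2, 0.17 (SE 0.08, adjusted p = 0.174) for fabp10a and 0.12 (SE 0.11, adjusted p = 0.456) for tfa. All 9 differences were positive, with a median of 0.28 against −0.03 over all genes tested. The median was 0.38 for the 5 tested acute-phase members and 0.19 for the 4 other members, with 1 call in each set.

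No member was called for cortisol in klf9-/- larvae, where 4.85% of all genes tested were called. With vehicle, fgg had 2735, 2958, 980 and 1072 normalized counts in these larvae, and with cortisol 3066, 2735, 3175 and 1724. The values overlapped on day 1 and were separate on day 2. The log2 difference of fgg was 0.61 (SE 0.22, adjusted p = 0.0975), that of ambp 0.38 (SE 0.12, adjusted p = 0.0657) and that of apoa2 0.30 (SE 0.11, adjusted p = 0.0979). For cp the values were 1591, 1724, 1012 and 924 normalized counts with vehicle and 1591, 1504, 1802 and 1411 with cortisol. These groups overlapped, and the difference was 0.31 (SE 0.16, adjusted p = 0.217). The differences of fgb (0.48, adjusted p = 0.136) and fga (0.41, adjusted p = 0.175) fell to 0.22 and 0.17 without klf9-/- cortisol replicate 3, and that of fgg to 0.33. With all samples, serpina1 (−0.03, adjusted p = 0.906) and tfa (−0.10, adjusted p = 0.578) were the members with a negative difference. The median over the 9 members was 0.31, against −0.01 over all genes tested, and 5 of the 9 had an unadjusted p under 0.05, as had 6030 of the 21490 genes.

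**Figure D2:**
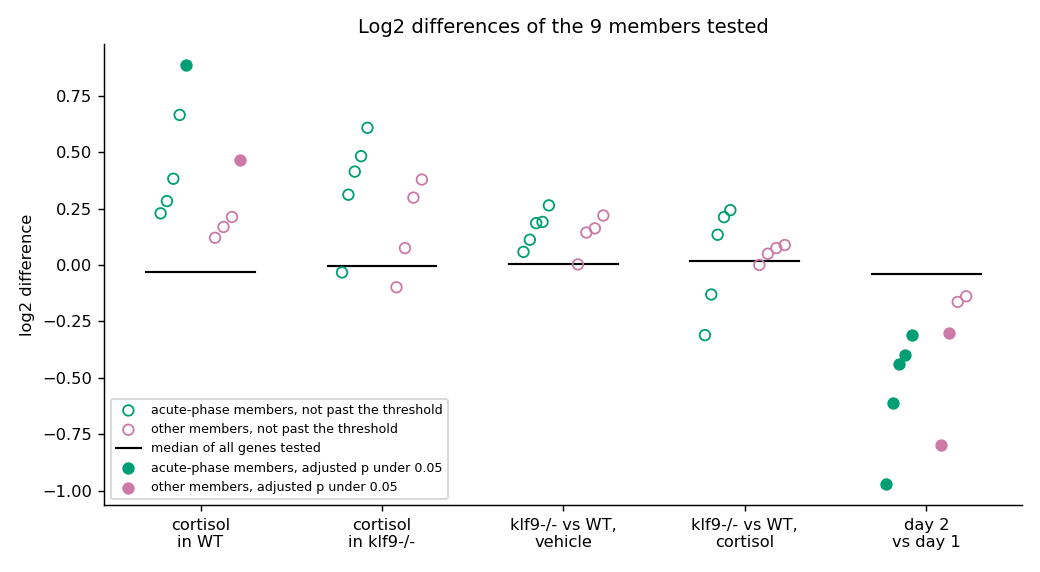
Log2 differences of the 9 tested members in 5 comparisons (x axis), from the limma model with preparation day as a covariate. Points are genes, green for acute-phase and pink for other members, filled where the adjusted p is under 0.05, and black lines mark the median of all genes tested. Filled points appear for cp and ambp with cortisol in WT larvae and for 7 members between the days.

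Neither genotype comparison gave a call. With vehicle, 0.586% of all genes tested were called between klf9-/- and WT larvae and none of the members. Their differences were all at or above 0, from 0.00 (SE 0.11) for apoa2 to 0.26 (SE 0.16, adjusted p = 0.537) for cp, and the lowest adjusted p was 0.424, for tfa. With cortisol, where 2.07% of all genes tested were called, 6 of 9 differences were positive. The most negative was that of cp, at −0.31 (SE 0.16, adjusted p = 0.457): the 4 klf9-/- samples (1411 to 1802 normalized counts) all lay below the 4 WT samples (1841 to 2088). In an alternative model that fitted condition means for each day separately, this difference of cp was called (adjusted p = 0.0447, with 3.56% of all genes tested called).

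The difference between the genotypes in the response to cortisol was tested as an interaction, in which positive values are larger effects in WT larvae. No member was called, and 0.168% of all genes tested were. It was 0.58 (SE 0.23, unadjusted p = 0.023, adjusted p = 0.774) for cp and 0.32 (SE 0.21, adjusted p = 0.966) for serpina1. For ambp, the other member called with cortisol in WT larvae, it stayed between 0.005 and 0.18 when any 1 sample was left out. For the fibrinogen chains it was between −0.19 and 0.06 with standard errors of 0.27 to 0.32. The comparisons in WT and in klf9-/- larvae use different samples, whereas each of them shares samples with the genotype comparisons. All of these comparisons came from a single fit with a common day term and a common estimate of spread, so their p-values are not independent.

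Differences between the preparation days were larger in size than those with cortisol in WT larvae for 7 of the 9 tested members, all but cp and fabp10a. All 9 tested members were lower on day 2, and 7 were called lower, where 32.8% of all genes tested were called lower and 63.1% in either direction. The largest log2 difference among them was that of fgg, −0.97 (SE 0.16, adjusted p = 8.13e-05), followed by those of ambp, −0.80 (SE 0.08, adjusted p = 3.11e-06), and fgb, −0.61 (SE 0.14, adjusted p = 0.00163). It was −0.44 (SE 0.11) for cp, −0.40 (SE 0.14) for fga, −0.31 (SE 0.11) for serpina1 and −0.30 (SE 0.08) for apoa2, with adjusted p-values from 0.00337 to 0.019. The remaining members, fabp10a (−0.14, adjusted p = 0.0529) and tfa (−0.16, adjusted p = 0.0764), were not called. The median of the 9 members was −0.40, against −0.04 over all genes tested. All 5 acute-phase members were called (median −0.44) and 2 of the 4 other members (median −0.23).

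The difference between the days was not the same with and without cortisol. In WT larvae with vehicle, the mean of cp on day 2 was 0.544 of that on day 1, and with cortisol it was 0.903. The same ratios in klf9-/- larvae were 0.584 and 1.04. For serpina1 they were 0.686 and 1.096 in WT larvae and 0.586 and 0.951 in klf9-/- larvae. Vehicle samples of day 2 thus held the lowest values of these genes, and cortisol samples differed less between the days. For ambp the ratios were close in WT larvae (0.558 with vehicle, 0.592 with cortisol) and further apart in klf9-/- larvae (0.476 and 0.691). The ratio of fabp10a was between 0.850 and 0.951 in every condition.

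Accordingly, the effect of cortisol was estimated for each day, with 2 samples per condition and day. In WT larvae on day 1, cp (0.52, SE 0.11, adjusted p = 0.00294) and ambp (0.43, SE 0.14, adjusted p = 0.0304) were called higher, where 39.6% of all genes tested were called and 18% were called higher. The fibrinogen chains differed by −0.08 (fga), 0.07 (fgb) and 0.46 (fgg, adjusted p = 0.137), and serpina1 by −0.05. On day 2, cp (1.25, SE 0.11, adjusted p = 0.000187) and serpina1 (0.62, SE 0.11, adjusted p = 0.0109) were called higher, where 1.5% of all genes tested were called. The values of serpina1 were 5090 and 6003 normalized counts with vehicle and 5729 and 4958 with cortisol on day 1, and 3860 and 3752 with vehicle and 6194 and 5515 with cortisol on day 2. The groups overlapped on day 1 and were separate on day 2. The day 2 differences of fgg (0.87, adjusted p = 0.107), fgb (0.70, adjusted p = 0.177) and fga (0.53, adjusted p = 0.30) were not called. Nor was the day 2 difference of ambp, which at 0.51 was no smaller than on day 1. Far more genes were called on day 1 than on day 2, so a call on only 1 of the days is not a difference between them. Without any 1 of 3 samples (WT vehicle replicates 3 and 4, WT cortisol replicate 3) serpina1 was not called on day 2 (adjusted p 0.0563 to 0.18), and ambp was not called on day 1 without WT vehicle replicate 1 (0.20, adjusted p = 0.331) or WT cortisol replicate 1 or 2 (adjusted p = 0.109 and 0.092).

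The difference between the days in the effect of cortisol in WT larvae was called for 2 members, cp at 0.73 (SE 0.15, adjusted p = 0.0112) and serpina1 at 0.67 (SE 0.15, adjusted p = 0.0154). Of all genes tested, 16.2% were called and 8.32% were called with a higher effect on day 2. The count was 1 without WT cortisol replicate 2 or 3, where serpina1 was not called, and 4 without klf9-/- cortisol replicate 3 or 4. For ambp (0.08, SE 0.20) and fabp10a (−0.06, SE 0.17) the day difference was within 1 standard error of 0. The median difference was 0.63 over the acute-phase members and 0.13 over the other members, and 0.02 over all genes tested. The medians behind it were 0.07 on day 1 and 0.70 on day 2 for the acute-phase members, and 0.14 and 0.27 for the other members. In lists described below, the median difference was 0.69 for 23 hepatocyte enzyme genes and 0.40 for 50 other secreted plasma protein genes. It was 0.94 for 8 exocrine pancreas genes and 0.93 for 7 intestine genes. It was negative for genes of acute-phase signalling (−0.10), macrophages (−0.22) and erythrocytes (−0.44). A higher effect on day 2 was thus not particular to the acute-phase members.

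In klf9-/- larvae on day 1, the cortisol difference was between −0.10 and 0.11 for 7 of the 9 members. It was −0.38 (SE 0.11, adjusted p = 0.0325) for serpina1, which was called lower where 9.5% of all genes tested were, and −0.34 (SE 0.12, adjusted p = 0.0742) for tfa. The vehicle samples of serpina1 both had 6814 normalized counts on that day and the cortisol samples 5515 and 4958. This call was lost without any 1 of those 4 samples (adjusted p 0.0834 to 0.161). On day 2, all 9 differences were positive and 3 were called, where 0.819% of all genes tested were: fgg at 1.19 (SE 0.24, adjusted p = 0.0388), cp at 0.72 (SE 0.11, adjusted p = 0.0146) and apoa2 at 0.60 (SE 0.10, adjusted p = 0.0241). The values of apoa2 on day 2 were 16876 and 18160 normalized counts with vehicle and 26483 in both cortisol samples. The 2 equal values are shared steps of the normalized scale, so the standard error of apoa2 is not a measure of its variation in the larvae.

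The size of the day 2 differences of the fibrinogen chains in klf9-/- larvae leaned on 1 sample. With cortisol, replicate 3 had 3368 normalized counts of fga, 2832 of fgb and 3175 of fgg, while replicate 4 had 1922, 1494 and 1724. Replicate 3 held the highest values of fga and fgb among all 16 samples. Without it the day 2 difference was 0.47 for fga, 0.47 for fgb and 0.75 for fgg (adjusted p = 0.336), and neither cp (0.55, adjusted p = 0.138) nor apoa2 (0.60, adjusted p = 0.197) was called. Without replicate 4 it was 1.27 for fga, 1.40 for fgb and 1.63 for fgg, and all were called. With all samples, fga (0.87, adjusted p = 0.062) and fgb (0.93, adjusted p = 0.0624) were not. In a fit without the variance trend none of the 3 day 2 calls held (adjusted p = 0.108 for fgg, 0.0659 for cp and 0.0678 for apoa2). Leaving out klf9-/- vehicle replicate 3 or 4 also ended the calls of fgg, cp and apoa2 (adjusted p 0.0523 to 0.214). Those of fgg and apoa2 ended as well without WT cortisol replicate 3 or 4, and that of fgg without 6 further samples, the first and second replicates of WT cortisol, klf9-/- vehicle and klf9-/- cortisol (highest adjusted p 0.0603). The difference between the days was called for no member in klf9-/- larvae by limma, where 0.168% of all genes tested were called. It had an unadjusted p under 0.05 in 8 of the 9 members, fabp10a being the exception, as in 3219 of the 21490 genes, and was largest for fgg (1.16, SE 0.33, adjusted p = 0.151). The next was fga (0.91, SE 0.28), and cp had the lowest adjusted p (0.82, SE 0.15, adjusted p = 0.0581). The count was 3 without WT vehicle replicate 1 or 2 and 4 without klf9-/- cortisol replicate 4. The medians were −0.04 on day 1 and 0.87 on day 2 for the acute-phase members and 0.01 and 0.37 for the other members. For klf9-/- against WT larvae with vehicle, a change between the days was called by limma for 0 members and 0% of all genes tested, with 1313 genes at an unadjusted p under 0.05.

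**Figure D3:**
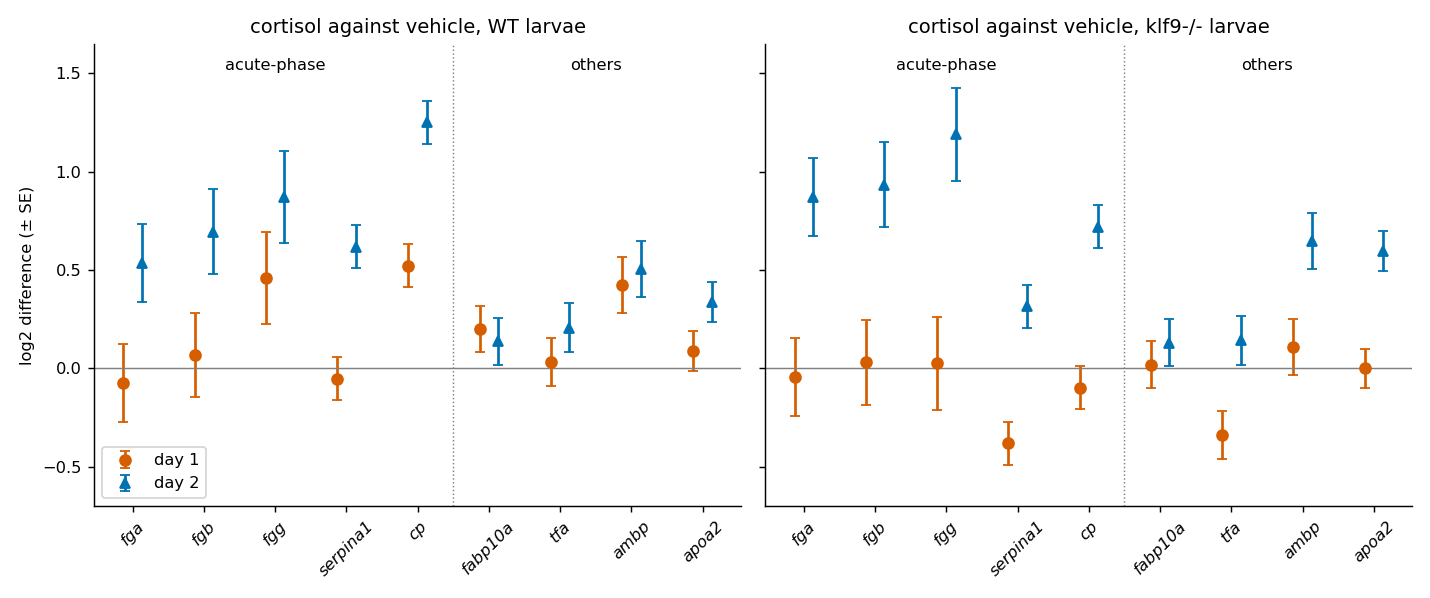
Log2 difference between cortisol and vehicle (y axis, ± SE) of the 9 tested members on each preparation day, in WT larvae (left) and klf9-/- larvae (right). Circles are day 1 and triangles day 2, each from 2 samples per condition, and acute-phase members stand left of the dotted line. The day 2 estimate lies above the day 1 estimate for every member except fabp10a in WT larvae.

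The 3 fibrinogen chains did not keep a fixed proportion, a pattern looked at after their values had been seen. The ratio of fgg to fga, in normalized counts not corrected for length, was 0.941 to 1.51 in the 8 samples of day 1 and 0.661 to 0.943 in the 8 samples of day 2. Only 1 sample of day 1 (WT vehicle replicate 1, 0.941) fell within the range of day 2. Within each day it was higher with cortisol in WT larvae, at 1.42 and 1.51 against 0.941 and 1.09 on day 1, and at 0.929 and 0.877 against 0.773 and 0.661 on day 2. For klf9-/- larvae the ratio was 1.15 and 1.33 with cortisol against 1.15 and 1.21 with vehicle on day 1, and 0.943 and 0.897 against 0.752 and 0.721 on day 2. The genotypes with cortisol were apart on day 1 and overlapped on day 2. The ratio of fgb to fga moved less, between 0.856 and 0.961 on day 1 and between 0.718 and 0.841 on day 2. In klf9-/- cortisol replicate 3, where all chains were high, the ratio of fgg to fga (0.943) was near that of replicate 4 (0.897).

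**Figure D4:**
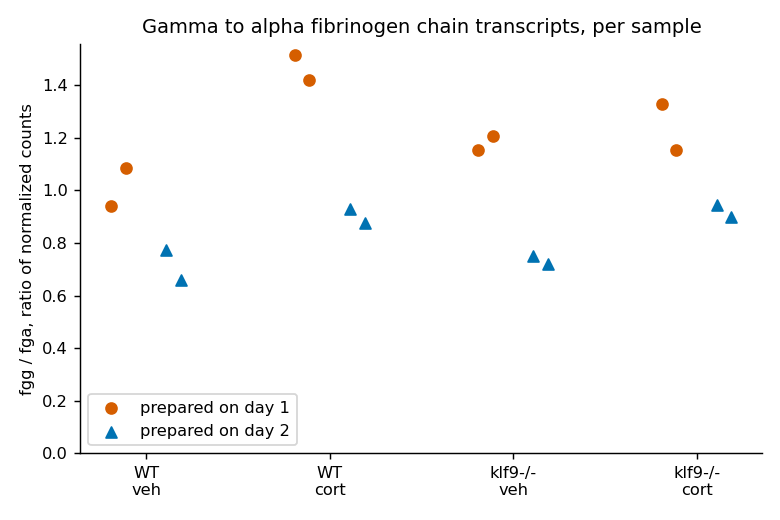
Ratio of fgg to fga normalized counts (y axis, not corrected for transcript length) in each of the 16 samples by condition. Circles are day 1 and triangles day 2. The highest values are the WT cortisol samples of day 1 (1.42 and 1.51) and the lowest is a WT vehicle sample of day 2 (0.661).

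Other genes of the liver were read from lists of which 73.8% (other secreted plasma proteins), 73.3% (hepatocyte enzymes), 77.8% (liver transcription factors) and 70% (acute-phase signalling) of the symbols were found. Of 50 other secreted plasma protein genes tested, 6 were called higher and 0 lower with cortisol in WT larvae (median 0.34). Among the 6 were hpxb (0.92, adjusted p = 0.00544), encoding a heme-binding hemopexin, and ahsg1 (0.72, adjusted p = 0.0384), encoding a fetuin. Of all genes tested, 4.67% were called higher there. The hemopexin gene hpxa of the same list went the other way and was not called. In WT larvae it had 92 ± 45.5 normalized counts with vehicle and 67 ± 24.2 with cortisol (SD, n = 4). In klf9-/- larvae 1 of the 50 was called higher, the apolipoprotein E gene apoeb (0.47, adjusted p = 0.041), where 2.35% of all genes tested were called higher, and the median of the 50 was 0.24. On day 2, 37 of the 50 were called lower and 1 higher, with a median of −0.55, against 32.8% of all genes tested called lower and 30.3% called higher. By sign alone 47 of the 50 were lower and 3 higher, where 53.4% of all genes tested were lower. By day, 7 of the 50 were called higher and 4 lower with cortisol on day 1 in WT larvae, where 18% of all genes tested were called higher and 21.6% lower. On day 2 in WT larvae 18 were called higher and 0 lower, where 1.46% of all genes tested were called higher. In klf9-/- larvae 1 was called higher and 5 lower with cortisol on day 1 (6.86% and 9.5% of all genes tested), and 6 higher and 0 lower on day 2 (0.712% called higher).

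Of 23 hepatocyte enzyme genes, 1 was called higher and 7 lower with cortisol in WT larvae on day 1 (18% and 21.6% of all genes tested), and 8 higher on day 2 (1.46%). By sign alone, 2 of the 23 were higher and 20 lower on day 1, and 21 were higher and 2 lower on day 2. The effect was called higher on day 2 than on day 1 for 14 of them, where 8.32% of all genes tested were, among them gys2 (1.14, adjusted p = 0.00104), encoding liver glycogen synthase. In klf9-/- larvae 0 of the 23 were called higher and 5 lower on day 1 (6.86% and 9.5% of all genes tested), and 4 higher on day 2 (0.712%). By sign, 8 were higher and 15 lower on day 1, and 20 and 3 on day 2. The effect was called higher on day 2 for 2 (0.14% of all genes tested), among them gys2 (1.16, adjusted p = 0.0133, limma). Among 14 genes of acute-phase signalling, 7 were called higher with cortisol in WT larvae (4.67% of all genes tested). They included il1b (2.32, adjusted p = 0.00733), encoding interleukin 1 beta, and nfkbiaa (1.05, adjusted p = 0.00313, limma), encoding an NF-kB inhibitor. The interleukin 6 receptor gene il6r (0.67, adjusted p = 0.00293) was another. The 14 also hold the glucocorticoid receptor gene nr3c1 and its target genes fkbp5 and tsc22d3, so they are not genes of inflammation alone. The mean of il1b over the 16 samples was 8.5 normalized counts, near the limit of 5 for testing. By day, il1b was called higher on day 1 (3.25, adjusted p = 0.000869) and was not called on day 2. None of the 14 (median 0.19, against 0.35 in WT larvae) was called in klf9-/- larvae, where 4.85% of all genes tested were. The genotype difference in response was called for none, where 0.168% of all genes tested were. With cortisol, il1b was lower in klf9-/- than in WT larvae (−1.98, adjusted p = 0.0252), at its low level. By day this difference was called on day 1 (−2.90, adjusted p = 0.016) and not on day 2. Of 14 liver transcription factor genes, the xenobiotic receptor gene nr1i2 was called higher with cortisol in both genotypes (0.42, adjusted p = 0.0225, in WT and 0.48, adjusted p = 0.0318, in klf9-/- larvae). The C/EBP alpha gene cebpa was called higher as well in klf9-/- larvae (0.43, adjusted p = 0.0318). In WT larvae 8 of the 14 had a negative difference (median −0.08), and the homeodomain factor gene onecut1 was called lower (−0.46, adjusted p = 0.0462). The larvae were measured whole, so values of these genes are not of liver alone. On day 2, 3 of the 14 were called higher and 3 lower (30.3% and 32.8% of all genes tested). Among the higher ones was onecut1 (0.86, adjusted p = 4.19e-06). With cortisol in WT larvae, 1 of the 14 was called higher and 5 lower on day 1 (18% and 21.6% of all genes tested). On day 2 it was 2 and 0 (1.46% and 0.0465% of all genes tested).

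Markers of other cell types moved in some of the same comparisons. Genes matching 5 of 7 macrophage marker symbols gave 9 tested genes, most of them identifiers that share the symbol mfap4. With cortisol, 7 were called higher in WT larvae (median 1.57) and 2 in klf9-/- larvae (median 0.59). Of all genes tested, 4.67% and 2.35% were called higher in these comparisons. All 9 were called lower on day 2, where 32.8% of all genes tested were. The summed level of 10 macrophage genes, with an mfap4 identifier below the limit for testing, was 818 to 1106 normalized counts with vehicle and 2252 to 2482 with cortisol in WT larvae on day 1, and 599 to 723 and 1374 to 1418 on day 2. In klf9-/- larvae it was 863 to 870 and 1078 to 1247 on day 1 and 539 to 598 and 832 to 996 on day 2. Of 8 exocrine pancreas genes, from 58.3% of the symbols listed, 3 were called higher with cortisol in WT larvae (median 0.69, 4.67% of all genes tested). In klf9-/- larvae none of the 8 was called (4.85% of all genes tested). Their sum was 25168 to 29351 normalized counts with vehicle and 55471 to 58748 with cortisol in WT larvae on day 2, and 30815 to 71946 and 42629 to 43336 on day 1, where the groups overlapped. None of 7 intestine genes was called with cortisol over both days (8.66% of all genes tested in WT and 4.85% in klf9-/- larvae). By day in WT larvae, 1 of the 7 was called higher and 4 lower on day 1 (18% and 21.6% of all genes tested), and 2 higher on day 2 (1.46%). Their sum was 15341 to 15973 with vehicle and 22496 to 24102 with cortisol in WT larvae on day 2, and 25511 to 30246 and 21078 to 22291 on day 1. Of 8 genes of the yolk syncytial layer, which also makes apolipoproteins, 0 were called with cortisol over both days in WT larvae (8.66% of all genes tested). In klf9-/- larvae 1 was called, apoeb (4.85% of all genes tested). By day in WT larvae, 0 of the 8 were called higher and 3 lower on day 1 (18% and 21.6% of all genes tested). On day 2, 3 were called higher and 0 lower (1.46% called higher). In klf9-/- larvae 1 of the 8 was called higher on day 2 (0.712%). Their sum was 70494 to 76120 with vehicle and 126722 to 127671 with cortisol in WT larvae on day 2, and 114300 to 129885 and 80110 to 106564 on day 1, where the cortisol samples were the lower. Among these genes, apoa1b, apobb.1, apoeb and apoc2 also belong to the list of other secreted plasma proteins, as does apoa4b.1 of the intestine genes. These lists are thus not separate, and the call of apoeb is the one given above. No marker sum was at 0 in any sample. The 3 erythrocyte genes and the 4 genes listed for bile duct gave no call for cortisol over both days. Of all genes tested, 8.66% were called in WT and 4.85% in klf9-/- larvae. In WT larvae on day 1, 2 erythrocyte genes were called higher and 0 lower (18% and 21.6% of all genes tested). Of the bile duct genes 2 were called higher and 2 lower there. The lower ones were abcb4 (−1.34, adjusted p = 8.61e-05) and abcb11a (−1.24, adjusted p = 0.000616). Hepatocytes express both genes, so their values cannot be read as those of the bile duct. The part of these other cell types in the members' differences was not tested.

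By correlation over the 16 samples, the genes whose pattern was most like the mean of the 9 members, among 13740 genes that averaged 75 normalized counts or more, were cfhl4 (r = 0.97), GC (0.97), muc13a (0.96), f2 (0.96) and serpinf2b (0.96). Within the 8 samples of day 1, r was 0.743 to 0.894 for these genes, and within day 2 it was 0.955 to 0.992. In mammals, the plasma carrier of vitamin D is the product of GC, prothrombin is that of F2, and alpha-2-antiplasmin, the inhibitor of plasmin, that of SERPINF2. The product of muc13a is a membrane mucin of the epithelial surface in mammals, not a plasma protein.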

How the data were processed

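Whole-larva polyA RNA was measured in 16 samples, 4 per condition, on 2 preparation days (8 samples each). Per the study's methods, the authors trimmed single-end reads with Trimmomatic 0.38, aligned them with STAR 2.6.1b to GRCz11 and counted with RSEM 1.3.0. They corrected counts for GC content and by full-quantile normalization between samples with EDASeq in R 3.6.1, added 0.1 and deposited log2 values. Their own tests used DESeq2 1.24.0. All 16 columns held the same sorted values, whole on the count scale (100% within 1e-06), with a sum of 14653434, so the reads per sample were not recoverable and no counting error is given. Count tests were not used because the values are normalized.

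All 21490 genes that averaged 5 or more normalized counts were fitted with limma 3.58.1 in R 4.3.3, with condition means, preparation day and a variance trend, two-sided, at a Benjamini-Hochberg adjusted p under 0.05 over all genes tested. Effects by day came from 8 means, 1 per combination of condition and day. Single members were checked by exact permutation within days. The procedure was tested on simulated data with independent errors and the same day effect in every condition. That check does not cover cortisol effects that differ between the days. Ratios, correlations and figures were made with matplotlib 3.10.9, pandas 2.3.3 and numpy 2.4.6 in Python 3.11.15. Symbols matched 21794 of 22994 identifiers.

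Members and lists were chosen with earlier results of these data known, and fgg and cp also belong to a gene list that the study drew from these samples. Named were all members, per list and comparison the 3 largest called changes in each direction (given here in part), klf9, and the 5 genes most like the members. The numbers of replicates carry the day only: across 24 pairs of same-numbered samples, departures from the condition mean had a median r of 0.456, and 0.003 once the day was removed. Alternatives were other limits on low values, 10 counts added, median centring, no day term, replicate number as a block, separate means, only the samples compared, each day alone, no trend, array weights and each sample left out.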

Additional observations from a re-analysis of the deposited data

Results flagged for a closer look

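In WT larvae with cortisol, replicate 2 had 2374 normalized counts of fga and stood apart from the other 3 replicates (1922 to 1992), with a gap to the next value of 0.831 of the whole range, just above the limit for 4 values. It was the only such sample in 40 groups of 4 that were checked. The chance rate of about 1 in 20 holds for 4 like samples, whereas each group held 2 samples of each day. A gap between the days makes such a flag less likely, so the number of flags is not a measure of how many outliers there were. In WT larvae the effect of cortisol differed between the preparation days for cp by 0.7318 on the log2 scale (SE 0.15, adjusted p = 0.0112, limma) and for serpina1 by 0.6716 (SE 0.15, adjusted p = 0.0154), both higher on day 2, out of 18 such differences tested in the 2 genotypes. The call of serpina1 was lost without WT cortisol replicate 2 (0.57, adjusted p = 0.0614) or 3 (0.59, adjusted p = 0.0659), while that of cp held without any 1 sample (adjusted p 0.00675 to 0.0474). The 2 days differed in the handling of the samples before homogenization and in the order of collection, which cannot be told apart, and the part of either was not tested.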

How the results depend on the processing

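Limits on low values, 10 counts added, median centring (which moved nothing, since the medians were equal), the replicate block and a fit with no trend left the cortisol counts in WT larvae (2 members), klf9-/- larvae (0) and the genotype comparisons (0) as they were. The replicate block in place of day gave 2, 0 and, between the days, 7 members called, and changed no other call of a member. With cortisol in WT larvae 0 members were called without the day term, 5 with separate means (26.4% of all genes tested), 1 with only the 8 samples compared, 1 on day 1 alone and 4 with array weights; leaving out 1 sample gave 1 to 3. In klf9-/- larvae the count was 5 with separate means (19.9% of all genes tested), 3 on day 2 alone and 1 with array weights, and 0 to 1 without 1 sample (1 without WT vehicle replicate 1). Between genotypes with cortisol it was 1 with separate means (cp). For the day difference in effect it was 1 to 4 without 1 sample in WT larvae, and in klf9-/- larvae 1 with array weights and 0 to 4 without 1 sample. Calls by day also ended. Without the variance trend these were ambp in WT larvae on day 1 (adjusted p = 0.0553), serpina1 in klf9-/- larvae on day 1 (0.0605) and fgg, cp and apoa2 in klf9-/- larvae on day 2 (0.108, 0.0659 and 0.0678). With no limit on low values that of apoa2 in klf9-/- larvae on day 2 ended (0.0642), with only the 8 samples compared those of ambp in WT larvae on day 1 (0.0743) and fgg in klf9-/- larvae on day 2 (0.059), and with array weights that of ambp in WT larvae on day 1 (0.0564). The cause of these changes was not tested. On day 1 alone, signs turned for the cortisol difference of fga (−0.076) and serpina1 (−0.053) in WT larvae, of fga (−0.042) and cp (−0.10) in klf9-/- larvae, for the genotype difference with cortisol of fgg (−0.14) and ambp (−0.037), and for the interaction of fgb (0.039) and apoa2 (0.088). On day 2 alone they turned for cortisol in klf9-/- larvae of serpina1 (0.32) and tfa (0.14), for the genotype difference with vehicle of apoa2 (−0.083), and for the interaction of fgg (−0.32) and ambp (−0.14). Array weights turned the interaction of fga (0.033), fgb (0.12) and apoa2 (0.023). None of these turned values was called. Signs of 18 uncalled values also turned without 1 sample. The interaction ranged from −0.29 to 0.056 for fga, −0.21 to 0.17 for fgb and −0.094 to 0.34 for fgg. The genotype difference with cortisol ranged from −0.055 to 0.32 for fgb, −0.15 to 0.29 for fgg and −0.0004 to 0.16 for ambp, and with vehicle from −0.047 to 0.19 for fga and −0.070 to 0.076 for apoa2. Cortisol in WT larvae on day 1 ranged from −0.24 to 0.091 for fga, −0.11 to 0.25 for fgb, −0.17 to 0.066 for serpina1 and −0.16 to 0.23 for tfa. Its day difference ranged from −0.15 to 0.31 for ambp, −0.23 to 0.10 for fabp10a and −0.022 to 0.37 for tfa. Cortisol in klf9-/- larvae ranged from −0.13 to 0.050 for serpina1, and on day 1 from −0.064 to 0.10 for fabp10a and −0.057 to 0.11 for fgg. Depth is unknown, so its part in these limits cannot be given.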
